A study of Mus musculus with 32 samples.

Results

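The 9 complement genes C1qa, C1qb, C1qc, C2, C3, C3ar1, C5ar1, Cfb and Cfp were followed from monocytes into the macrophages that these monocytes gave rise to in the mouse gut. They were chosen by symbol as core members of the complement pathway, and all 9 were present among the 24411 genes of the first count table and the 24421 genes of the second. The libraries were bulk RNA-seq of sorted cells from C57BL/6J mice, made with a derivation of MARS-seq, a 3′ method with barcoded samples. The graft, 3 libraries, was the monocyte population before transfer, CD11b+ CD115+ Ly6C+ bone marrow cells of Cx3cr1 GFP/+ donors by the study's methods, whereas its labels name blood, a CD45+CD11b+CD115+Ly6C+/- sort, the B6.FVB transgene Itgax-DTR/GFP (57Lan) and no diphtheria toxin. Recipients were bone marrow chimeras whose blood-derived cells carried the diphtheria toxin receptor under the CD11c (Itgax) promoter, so that the radioresistant cells of the host were wild type. Their own gut macrophages were depleted with diphtheria toxin at 18 ng per g body weight before transfer. Recipients then received 9 ng per g every other day after it. Graft-derived cells were sorted from the colon on day 4 (3 libraries), day 8 (4 deposited, of which 3 were tested, as the study lists 3) and day 12 (4). From the ileum they were sorted on days 4, 8 and 12 (4 each). The study sorted them by the donor CD45 allotype and GFP and describes them as CD11b+ CD64+ Ly6C-. The labels name a CD45+CD11b+CD64+Ly6C-MHCII+ sort, which is the gate that the study gives for resident macrophages. A further 6 libraries, all used although the study lists 4, were colon macrophages from recipients with Cx3cr1-DTR bone marrow under the same toxin doses, taken on day 14 by the study's methods. The labels do not say how many animals each library held.

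Complement is a cascade of plasma and tissue proteins that tags microbes and dying cells for uptake. C1q, built from the A, B and C chains that C1qa, C1qb and C1qc encode, starts the classical route, in which C2 supplies the protease of the C3-cleaving enzyme. Factor B (Cfb) does the same for the alternative route, which properdin (Cfp) stabilises. C3 is the protein on which the routes converge, and its fragment C3a and the C5 fragment C5a act on myeloid cells through the receptors C3ar1 and C5ar1. Tissue macrophages are a known source of C1q, whereas hepatocytes make most of the circulating C3.

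Reads on genes ranged from 591817 to 5228664 over the graft and CD11c-DTR libraries and from 1223772 to 4218027 over the CX3CR1-DTR libraries. A normalized read below is a count scaled to 10000000 mapped reads of the library, and the limit that 3 counts set lay between 3.51 and 27.6 normalized reads. Markers of other cell types had reads in the gut libraries, and the source of this RNA was not tested. A list of 10 epithelial markers summed to 36.8 to 58.9 normalized reads in the graft, 98442 to 158872 in the colon libraries tested and 18653 to 122019 in the ileum. In the ileum on day 4 the epithelial sum was 122019 and 119348 in the libraries of the first experiment by the dates in the labels and 27153 and 35162 in those of the second. A list of 10 macrophage markers, among them Csf1r, Adgre1, Cd68 and Mertk, was detected in full in every gut group, with sums of 2085 to 12935 in colon and 5066 to 55214 in ileum. In the graft 9 of the 10 were detected, Mertk was at 0 counts in all 3 libraries, and the sum, most of it lysozyme (Lyz2), was 62607 to 86396. In such bulk libraries fewer cells of a type and less RNA per cell cannot be told apart.

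In mm9, the build of the deposited tables, C1qa (chr4:136451831-136454759), C1qc (chr4:136445717-136448829) and C1qb (chr4:136436061-136442092) lay side by side on the minus strand of chromosome 4, within 18699 bases. C2 (chr17:34999547-35019045) and Cfb (chr17:34993319-34999459) were neighbours on the minus strand of chromosome 17, with 87 bases between the end of C2 and the start of Cfb, and C3 lay on the same chromosome at chr17:57343390-57367559. C3ar1 was at chr6:122797158-122806175, C5ar1 at chr7:16832094-16844687 and Cfp at chrX:20502580-20508681, all on the minus strand. RefSeq promoter windows (GRCm38.p6, 250 bases before to 50 after the start) were at hand for 6 of the 9 genes. They were searched on both strands for the ETS core AGGAAG, which 35.4% of all 32851 windows of this length held, the C/EBP-type motif TTGCNNAA (10.8%) and the STAT-type motif TTCNNNGAA (8.3%). The windows of C1qb and C1qc are shown because these genes rose together, and those of C3 and Cfp because these were the genes that fell from the graft to the colon. All run 5′ to 3′ on the gene's strand, with matches in capitals.
C1qb: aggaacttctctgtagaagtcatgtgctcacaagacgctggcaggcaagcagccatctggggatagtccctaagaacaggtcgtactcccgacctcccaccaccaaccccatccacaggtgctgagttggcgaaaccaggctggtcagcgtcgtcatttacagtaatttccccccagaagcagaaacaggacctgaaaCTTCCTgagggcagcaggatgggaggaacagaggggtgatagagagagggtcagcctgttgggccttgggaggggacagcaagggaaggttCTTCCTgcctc
C1qc: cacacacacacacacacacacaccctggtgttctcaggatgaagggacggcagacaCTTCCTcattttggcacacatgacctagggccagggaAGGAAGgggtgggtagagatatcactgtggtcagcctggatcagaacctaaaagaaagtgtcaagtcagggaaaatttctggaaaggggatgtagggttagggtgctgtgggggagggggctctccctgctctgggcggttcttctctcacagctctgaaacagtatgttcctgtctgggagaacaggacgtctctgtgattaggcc
C3: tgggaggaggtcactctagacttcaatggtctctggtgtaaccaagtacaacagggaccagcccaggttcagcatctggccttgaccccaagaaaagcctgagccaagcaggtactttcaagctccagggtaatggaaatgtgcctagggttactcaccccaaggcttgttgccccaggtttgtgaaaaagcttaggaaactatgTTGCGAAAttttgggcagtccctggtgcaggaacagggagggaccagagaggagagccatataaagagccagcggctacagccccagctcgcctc
Cfp: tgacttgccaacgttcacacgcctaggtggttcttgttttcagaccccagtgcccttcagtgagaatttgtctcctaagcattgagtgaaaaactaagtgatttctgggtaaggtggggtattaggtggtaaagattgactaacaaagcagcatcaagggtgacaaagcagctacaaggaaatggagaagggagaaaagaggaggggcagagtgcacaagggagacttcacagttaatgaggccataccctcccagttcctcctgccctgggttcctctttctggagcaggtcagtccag
These windows lie on the minus strand at chr4:136886151-136886450 (C1qb), chr4:136892865-136893164 (C1qc), chr17:57228087-57228386 (C3) and chrX:20931506-20931805 (Cfp). C1qb held the ETS core at positions -52 to -47 and 39 to 44 from the start, and C1qc at -194 to -189 and -157 to -152. The C3 window held 1 C/EBP-type match, at -45 to -38, and the Cfp window held none of the 3 motifs. The C3ar1 and C5ar1 windows, not shown, held the ETS core 1 and 3 times, the last pair in C5ar1 overlapping. A match is a run of letters and not a known site.

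The first question was how complement expression changed between the graft and the engrafted macrophages. From the graft to the colon on day 4, 8 of the 9 genes passed an adjusted p of 0.05 in edgeR's quasi-likelihood test, 6 higher and 2 lower, beside 60.6% of all 11842 genes tested. On day 12 these counts were again 6 and 2, beside 63%. From the graft to the ileum, 6 rose and 1 fell on day 4, beside 56.8% of all genes, and on day 12, beside 56.3%. The shares of all genes that rose were 35.1%, 36.6%, 35.6% and 34.9% in the same order, and the shares that fell 25.5%, 26.4%, 21.1% and 21.4%. The median log2 fold change over the 9 genes was 3.7 and 4.75 in colon and 5.22 and 6.64 in ileum, where that over all genes tested lay between 0.17 and 0.20. Scaled to library totals in place of TMM, the median of all genes was -0.12 in colon on day 4 and -0.20 in ileum on day 4, and the higher and lower calls over all genes went from 4221 and 2501 to 3447 and 3814 in ileum on day 4 and from 4134 and 2534 to 3291 and 3960 on day 12, while the called complement genes kept their directions and calls and 1 more passed in ileum on day 4. All 4 comparisons share the 3 graft libraries. All 9 genes passed the low-count filter (50 or more normalized reads in 3 or more libraries). C1qa, C1qc, C2 and C3ar1 were under 50 in every graft library and passed it only through the gut libraries. C1qb reached 50 in the graft only in replicate 2 (71.7) and so also needed gut libraries. The place of these genes in the counts and medians is thus no support for a rise, and their levels by library are given below.

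The 3 C1q genes rose by over 6 units on the log2 scale in every comparison with the graft. C1qa stood at 39.3, 36.8 and 14.5 normalized reads in the 3 graft libraries, at 1262, 3323 and 3235 in the colon on day 4, and at 12160.0, 3262, 19437 and 16069 in the ileum on day 4. By day 12 it was at 2908, 7735, 2112 and 3112 in the 4 colon libraries and at 34542, 13729.6, 12651 and 13377 in the 4 ileum libraries. The lowest gut library was thus far above the highest graft library, with no overlap. C1qa was up by a log2 fold change of 6.75 ± 0.88 (SE) in colon on day 4 (adjusted p = 7.35e-07, edgeR) and 7.31 ± 0.89 (SE) on day 12 (adjusted p = 2.30e-07, edgeR). In the ileum the same gene was up by 9.14 ± 0.96 (SE) on day 4 (adjusted p = 3.22e-08, edgeR) and 9.72 ± 0.98 (SE) on day 12 (adjusted p = 2.10e-08, edgeR). All gut libraries were higher than the graft mean in each case.

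C1qb, the B chain, went from 39.3, 71.7 and 12.11 normalized reads in the graft to 1089.8, 3492 and 3672 in colon on day 4 and 2715, 5001, 2127 and 2807 on day 12. In the ileum it was at 6425, 2801, 7115 and 9522 on day 4 and 33272, 6754, 7178 and 11412 on day 12. C1qc, the C chain, was at 11.2, 15.5 and 21.8 in the graft, 568, 1488 and 1204 in colon on day 4 and 3440.3, 1663, 3677 and 5099.6 in ileum on day 4. As for C1qa, graft and gut libraries did not overlap for either gene. The log2 fold changes of C1qb were 6.37 ± 0.87 (SE) and 6.53 ± 0.86 (SE) in colon on days 4 and 12, and 7.68 ± 0.91 (SE) and 8.95 ± 0.95 (SE) in ileum. For C1qc they were 6.36 ± 0.83 (SE), 7.05 ± 0.84 (SE), 8.1 ± 0.88 (SE) and 9.08 ± 0.91 (SE) in the same order. The largest of these adjusted p-values was 1.33e-06 (edgeR). Ileum day 12 replicate 1 was the highest library of its group for all 3 C1q genes, and ileum day 8 replicate 4 the lowest of its own.

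**Figure D1:**
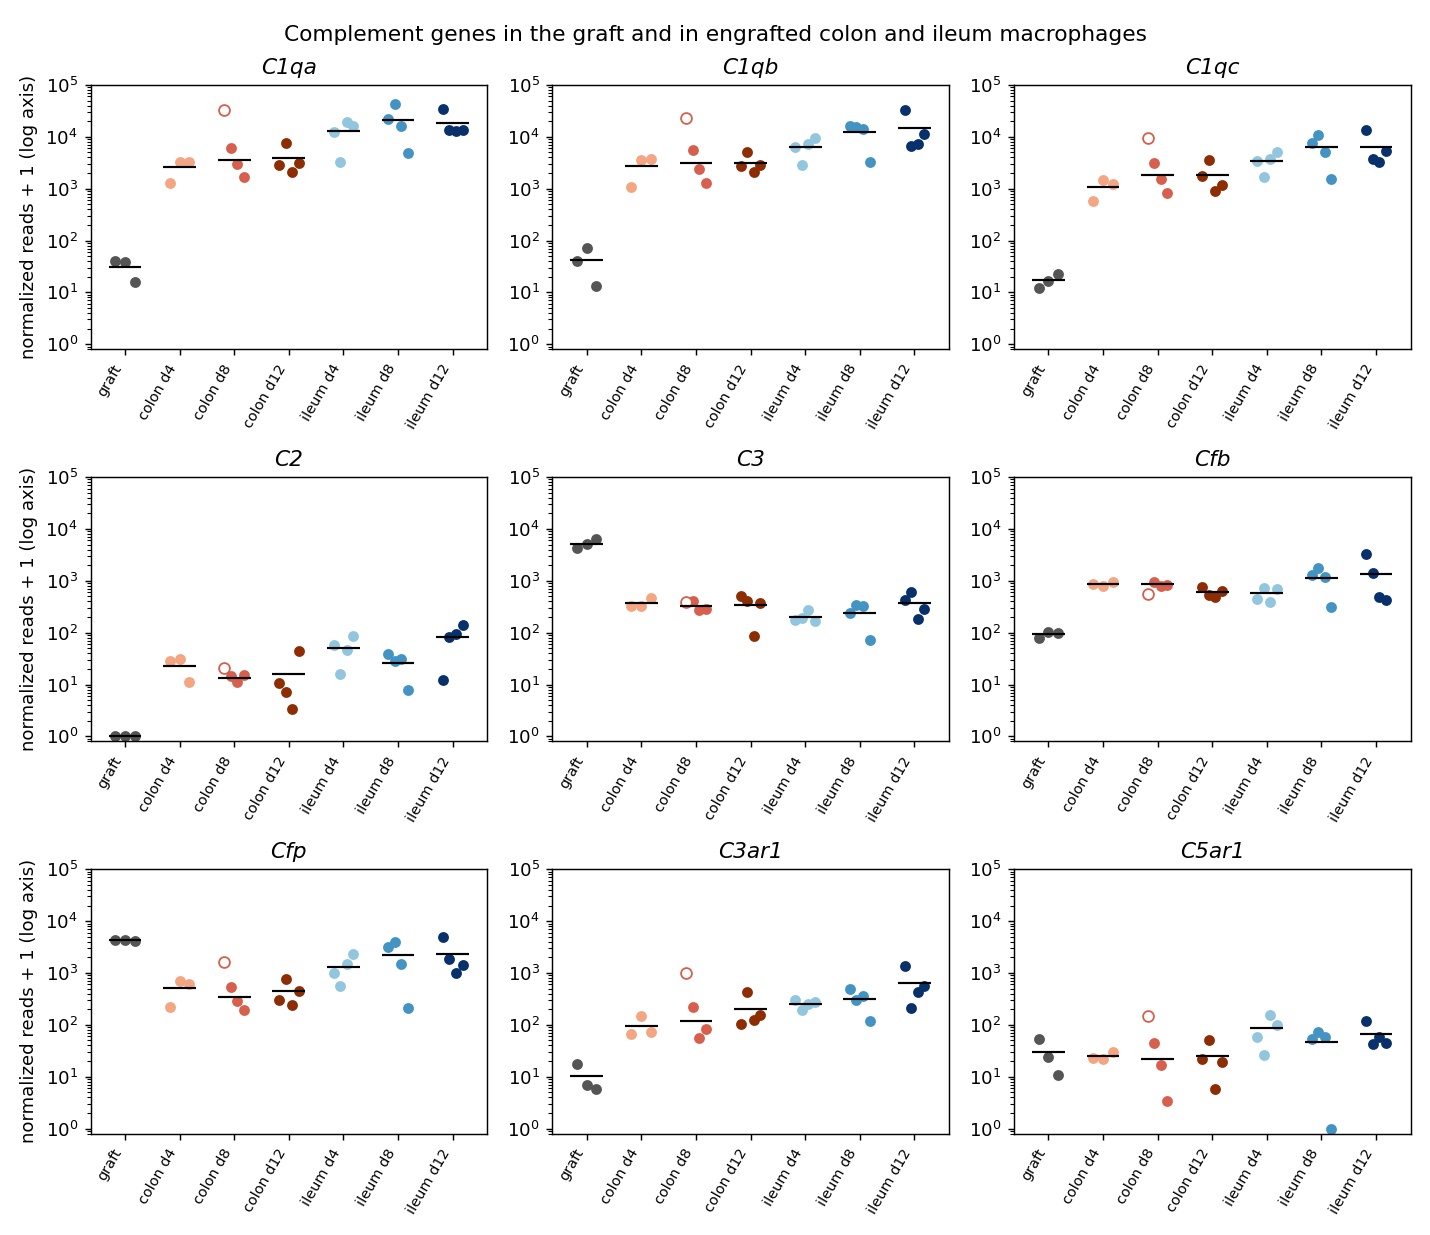
Normalized reads plus 1 (log axis) of each of the 9 complement genes by library, in the graft and in engrafted colon and ileum macrophages on days 4, 8 and 12 (d4, d8, d12). Points are libraries, horizontal lines are means of the tested libraries, and the open point is the fourth colon day 8 library, which was not tested. In the 3 C1q panels every gut library lies above every graft library, while C3 and, in colon, Cfp fall.

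Together the 3 C1q genes took 0.000704% to 0.00176% of all reads on genes in the graft. In colon libraries this share was 0.0466% to 0.275%, and in ileum libraries 0.131% to 1.35%. Within the trio, C1qa supplied a median of 40%, 43.8% and 42.4% of the C1q reads in colon on days 4, 8 and 12 and 53.8%, 49.3% and 49.6% in ileum. The C1qa shares of the segments overlapped, from 39.4% to 47.7% in colon and from 42.2% to 64.3% in ileum over all days. Over the 25 libraries tested, which share the jump from graft to gut, Pearson's r between the log2 levels was 0.99 for C1qa with C1qc and 0.987 for C1qa with C1qb. After the trio itself, the gene with the pattern most like each C1q gene was Cxcl16, a transmembrane chemokine, with r of 0.979 to C1qa, 0.971 to C1qb and 0.98 to C1qc.

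C2, the classical-route protease, was scarce throughout. It had 0 counts in all 3 graft libraries, which allows up to 5.81 to 8.42 normalized reads in each. It was at 26.9, 29.6 and 10.2 normalized reads in colon on day 4, 9.73, 6.23, 2.44 and 42.9 in colon on day 12, 56.1, 14.9, 46.1 and 85.6 in ileum on day 4 and 11.3, 82.7, 93.6 and 142 in ileum on day 12. Against the limit of 3 counts per graft library, the day 4 mean of C2 was at least 3.1-fold higher in colon and at least 7.07-fold higher in ileum, and the day 12 mean at least 2.14-fold and 11.5-fold higher. The adjusted p-values were 0.00203 and 0.00338 in colon and 2.30e-04 and 4.01e-05 in ileum (edgeR). C2 passed the low-count filter through ileum libraries alone, so these calls and its place in the counts of genes that rose are no support for a rise. The call for colon day 12, where 2 of the 4 libraries held 2 counts each, was lost in an equal-variance test per gene on log2 values (adjusted p = 0.222, equal-variance test). The genes most like C2 in pattern were C1rb, another classical-route protease gene (r = 0.872), Vstm4 (0.851) and Cxcr6 (0.848).

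C3, the central component, moved the other way. The graft libraries held 4303, 5107 and 6294 normalized reads of C3. In the colon C3 was at 323, 320.2 and 474 on day 4 and 516, 405, 86.5 and 374 on day 12, and in the ileum at 175, 192, 276 and 164 on day 4 and 423, 601, 179 and 284 on day 12. Every gut library thus held less C3 than every graft library. C3 fell by 3.52 ± 0.49 (SE) on the log2 scale in colon on day 4 and by 3.68 ± 0.44 on day 12, and by 4.30 ± 0.47 and 3.41 ± 0.44 in ileum (adjusted p at most 1.92e-06, edgeR). Ptpro and Kctd20 were among the genes with the most similar pattern over the 25 libraries, with r of 0.937 and 0.933.

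Properdin (Cfp) was at 4334, 4348 and 4064 normalized reads in the graft. It was lower in the colon, at 222, 712 and 606 on day 4 and 296, 772, 245 and 454 on day 12, and fell there by 2.72 ± 0.74 (SE) and 2.97 ± 0.67 on the log2 scale (adjusted p = 0.00311 and 5.47e-04, edgeR). In the ileum Cfp was at 1000.4, 566, 1465 and 2275 on day 4 and 4985, 1887, 998 and 1414 on day 12, a change from the graft that did not pass the test on either day (adjusted p = 0.0949 and 0.626, edgeR). On day 12 the ileum library with the most Cfp, replicate 1, was above all 3 graft libraries. Clec5a, Cd68 and Evl, of which Cd68 is a macrophage marker, followed Cfp most closely, with r of 0.959, 0.957 and 0.955.

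Cfb, the alternative-route protease, rose in both segments. It was at 78.6, 103 and 99.3 normalized reads in the graft, 871, 779.7 and 927 in colon on day 4 and 767, 532, 476 and 625 on day 12. In the ileum it was at 449, 734, 396 and 706 on day 4 and 3228, 1387, 481 and 424 on day 12. All gut libraries were above all graft libraries, and the spread was wide in the ileum on day 12, where replicate 1 stood apart. The log2 fold changes from the graft were 3.49 ± 0.59 (SE) and 2.95 ± 0.56 (SE) in colon on days 4 and 12, and 3.00 ± 0.56 (SE) and 4.34 ± 0.59 (SE) in ileum (adjusted p at most 8.98e-05, edgeR). Acp5, Echdc2 and Stra6l had the patterns most like that of Cfb (r = 0.928, 0.877 and 0.873).

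Of the receptors, C3ar1 rose and C5ar1 was not seen to change. C3ar1 stood at 16.8, 5.81 and 4.84 normalized reads in the graft, at 66.3, 148 and 71.2 and 105, 423, 123 and 152 in colon on days 4 and 12, and at 304, 194, 249 and 278 and 1352, 207, 434 and 569 in ileum. Graft and gut libraries did not overlap. Its log2 fold changes were 3.70 ± 0.86 (SE) and 4.75 ± 0.83 (SE) in colon and 5.22 ± 0.84 (SE) and 6.64 ± 0.84 (SE) in ileum (adjusted p at most 7.83e-04, edgeR). C3ar1 was followed most closely by Hpgds, a prostaglandin D synthase gene (r = 0.961), Rgs1 (0.95) and Cp (0.948). C5ar1 was low everywhere, at 53.3, 23.3 and 9.69 in the graft, 21.5, 20.8 and 28.5 in colon and 56.1, 25.6, 157 and 99.9 in ileum on day 4, and 21.4, 49.8, 4.87 and 18.1 in colon and 120.0, 41.3, 57.2 and 44.4 in ileum on day 12. The groups overlapped, and its adjusted p-values were 0.971 and 0.93 for colon and 0.0676 and 0.0893 for ileum (edgeR). Cmklr1, Ehd1 and Cass4 were the genes most like C5ar1, with r of 0.835, 0.83 and 0.828.

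**Figure D2:**
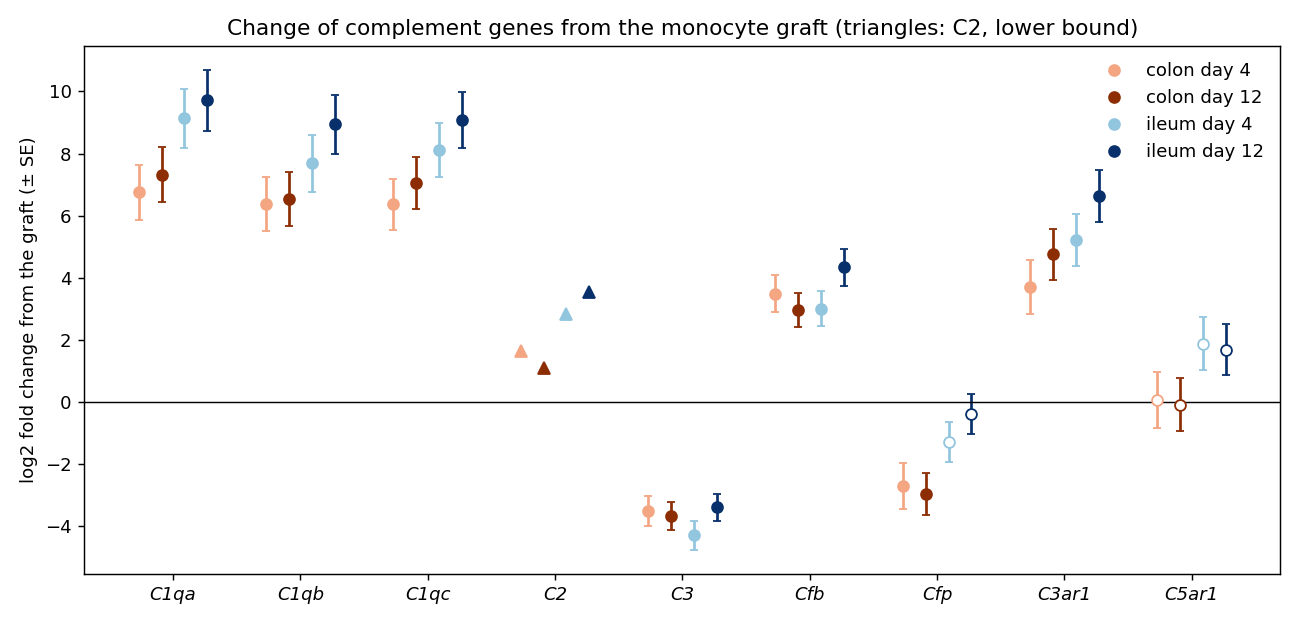
Log2 fold change from the graft (± SE, edgeR) of each complement gene in colon and ileum on days 4 and 12. Filled symbols passed an adjusted p of 0.05 and open symbols did not. Triangles give the lower bound for C2, which had 0 counts in the graft, and C3 and, in colon, Cfp lie below 0 among the filled symbols.

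The macrophage marker list fell from 62607 to 86396 normalized reads in the graft to 2085 to 12935 in colon and 5066 to 55214 in ileum. C3 and, in colon, Cfp fell as well, whereas the C1q genes, C2, Cfb and C3ar1 rose. The part of the list in these changes was not tested. Relative to 100 reads of that list, the summed C1q reads were 0.0774 to 0.144 in the graft, 125 to 218 in colon and 103 to 272 in ileum, with no overlap between graft and gut. Because the list itself fell from graft to gut, this ratio could only enlarge a rise and is no check of it. For C3 the same ratio was 5.74 to 10.1 in the graft, 2.34 to 15.5 in colon and 0.748 to 3.79 in ileum, so that graft and colon overlapped and the ileum lay below the graft. For Cfp it was 5.03 to 6.49 in the graft, 5.97 to 17.7 in colon and 2.21 to 16 in ileum, which overlapped as well. Most macrophage-list reads of the graft were Lyz2, so the graft ratios rest on that gene.

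Between days 4 and 12 none of the 9 genes passed the test within either segment. In colon 0 of 9 were called by edgeR, 0 had an unadjusted p under 0.05, DESeq2 called 0, and edgeR called 0% of all 11842 genes, while 239 had an unadjusted p under 0.05. Colon C1qa means were 2607, 3639 and 3967 normalized reads on days 4, 8 and 12, with overlapping ranges. In ileum edgeR and DESeq2 each called 0 of 9, beside 2.63% of all genes by edgeR and 2129 of 11842 at an unadjusted p under 0.05, and 4 genes, C1qb, C3, C3ar1 and Cfb, had an unadjusted p under 0.05, all toward higher levels on day 12. Ileal C3ar1 means were 256, 318 and 640.4 normalized reads, and ileal Cfb means 571, 1148 and 1380.2, with ranges that overlapped between days. The change over time did not differ between segments for any of the 9 at an adjusted p of 0.05 (edgeR interaction, 0% of all genes called), and 1 of the 9, Cfb, and 748 of all genes had an unadjusted p under 0.05. DESeq2 also called 0 there and left the adjusted p of 5 of the 9 undefined.

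The second question was how the segments differed. On day 4 no complement gene passed the test between colon and ileum in edgeR (0 of 9, beside 3.1% of all genes), 5 had an unadjusted p under 0.05, beside 2587 of all 11842 genes, and DESeq2 called 2, C1qa and C1qc, both lower in colon, beside 6.81% of all genes called lower by DESeq2. With the experiment as a replicate block edgeR called 1 of the 9, and without ileum day 4 replicate 2, or with the ileum libraries of the second experiment alone, 2. C1qa, at 2607 normalized reads in colon and 12732 in ileum on average, was nearest to the threshold (adjusted p = 0.0523, edgeR). On day 8, 5 were lower in colon and 0 higher, beside 18% and 16.9% of all genes. On day 12, 7 were lower in colon and 0 higher, beside 17.3% and 15.3%. When libraries were scaled to macrophage markers, C1qc and C3ar1 on both days and Cfb on day 12 turned to estimates above 0. None of these estimates passed the test (adjusted p at least 0.0707, edgeR). Of the 7 genes lower on day 12, C2 passed the low-count filter through ileum libraries alone, so its place in this count is no support. An equal-variance test per gene, the kind the study used, was run here with adjusted p-values. The study states a threshold of p under 0.05 and names no adjustment. With adjustment the test called 0 of the 5 on day 8, where C1qa had an adjusted p of 0.124 and C3ar1 one of 0.201 (equal-variance test). On day 12 it called 1 of the 7, C1qa. The median over the 9 genes was -1.73 on day 8 and -2.03 on day 12, where that over all genes was -0.05 and -0.02. Scaled to library totals in place of TMM, the median of all genes moved to 0.24 on day 8 and 0.11 on day 12, and the higher and lower calls over all genes from 57 and 310 to 43 and 121 on day 4, from 2002 and 2130 to 2803 and 1428 on day 8 and from 1807 and 2046 to 2067 and 1622 on day 12.

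For C1qa the difference passed the test on both days. On day 8 it was at 6213, 3027 and 1677 normalized reads in the 3 tested colon libraries and at 22054, 42182, 16505 and 4935 in the 4 ileum libraries, which overlapped at their edges. On day 12 the highest colon library, 7735, was below the lowest ileum library, 12651. The log2 fold change of colon over ileum was -2.77 ± 0.69 (SE) on day 8 (adjusted p = 0.00395, edgeR) and -2.40 ± 0.60 (SE) on day 12 (adjusted p = 0.00443, edgeR). For C1qb it was -2.25 ± 0.68 (SE) and -2.41 ± 0.61 (SE), for C1qc -2.0 ± 0.62 (SE) and -2.03 ± 0.55 (SE), and for Cfp -2.93 ± 0.73 (SE) and -2.57 ± 0.64 (SE) on the same days. On day 12 C1qb and Cfp, like C1qa, did not overlap between segments, and C1qc did. The adjusted p-values of these 3 genes were 0.0131, 0.0149 and 0.00423 on day 8 and 0.00455, 0.0075 and 0.00416 on day 12 (edgeR).

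C3ar1, at 216, 54.8 and 83.1 normalized reads in colon and 493, 303, 355 and 119 in ileum on day 8, was lower in colon, with a log2 fold change of -1.73 ± 0.61 (SE) (adjusted p = 0.0323, edgeR), and on day 12, with -1.89 ± 0.54 (SE) (adjusted p = 0.00991, edgeR). C2 and Cfb passed the test on day 12 alone, at -2.49 ± 0.72 (SE) and -1.38 ± 0.46 (SE) (adjusted p = 0.0119 and 0.0232, edgeR). C3 was at 345 normalized reads in colon against 372 in ileum on average on day 12 (adjusted p = 0.642, edgeR), and C5ar1 was at 23.6 against 65.7 (adjusted p = 0.0785, edgeR). Within single experiments by the label dates, C1qa was lower in colon in each that held both segments, with log2 ratios of the means of -2.65 on day 4 in experiment 2, -1.63 and -3.32 on day 8 in experiments 2 and 3, and -2.24, -2.26 and -2.10 on day 12 in experiments 1, 2 and 3. Of the 9 genes, 7 were lower in colon within the second experiment on day 4, 8 in each experiment on day 8, and 9, 9 and 7 on day 12, with 1 or 2 libraries a segment. For ileum day 8 replicate 2 the experiment rests on reading the year of its date as a slip.

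Single libraries carried part of these counts. Day 8 colon replicate 1 was left out because the study lists 3 libraries, though it does not name the one left out, and this library held 32738 normalized reads of C1qa and 1019.9 of C3ar1, the highest values in the colon. With it in the fit 0 of the 9 genes passed edgeR's test between segments on day 8 (1, Cfp, at an unadjusted p under 0.05), beside 25.5% of all genes, and C3ar1 turned to 0.06. The C3ar1 call on day 12 was lost in that fit as well (adjusted p = 0.0572, edgeR). In the same library the macrophage list summed to 40837 and the epithelial list to 66086 normalized reads, against 3017 to 8574 and 135964 to 144771 in the other 3. Without colon replicate 3 or replicate 4, 2 of the 9 passed on day 8. Without ileum replicate 1, 4 passed on day 12 in place of 7, as C1qc, C3ar1 and Cfb dropped out, with Cfb at -0.40 (adjusted p = 0.439, edgeR). The Cfb call was also lost without colon day 12 replicate 2 or 3, the C2 call on day 12 without ileum replicate 4, and the C3ar1 call on day 8 without ileum replicate 1 or 3 or colon replicate 3 or 4. With libraries scaled to their totals the C3ar1 call on day 8 (adjusted p = 0.0569, edgeR) and the Cfb call on day 12 (adjusted p = 0.0559, edgeR) were lost, and the latter also when just these 2 groups were fitted (adjusted p = 0.0964, edgeR).

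The macrophage and epithelial lists also differed between the segments. On day 12 the macrophage list summed to 3699.8 to 12935 normalized reads in colon and 12321 to 55214 in ileum, and the epithelial list to 98442 to 135022 and 18653 to 46204. Per 100 macrophage-list reads, the C1q reads had medians of 206, 158 and 138 in colon on days 4, 8 and 12 and 188, 188 and 167 in ileum, with overlapping ranges on each day. When each library was scaled to its macrophage-list reads, a choice made after the lists were seen, C1qa differed by -0.59 ± 0.61 (SE) on day 8 and -0.44 ± 0.56 (SE) on day 12, and C1qc by 0.17 ± 0.57 (SE) and 0.10 ± 0.53 (SE), now toward colon, and none of the 3 C1q genes passed the test on any day. On that scale 2 genes passed on day 4 and 2 on day 8, C3 and Cfb in each case, and C3 alone on day 12, all higher in colon and each beside a larger share of all genes, where 70.8%, 77.5% and 74.7% of all genes were called higher in colon. C3 stood 2.57 ± 0.64 (SE), 2.50 ± 0.64 (SE) and 1.69 ± 0.60 (SE) above ileum on the log2 scale on the 3 days, and Cfb 2.18 ± 0.64 (SE), 1.77 ± 0.64 (SE) and 1.17 ± 0.60 (SE). Per macrophage-list read, no C1q difference between the segments passed the test, and its direction varied with gene and day.

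**Figure D3:**
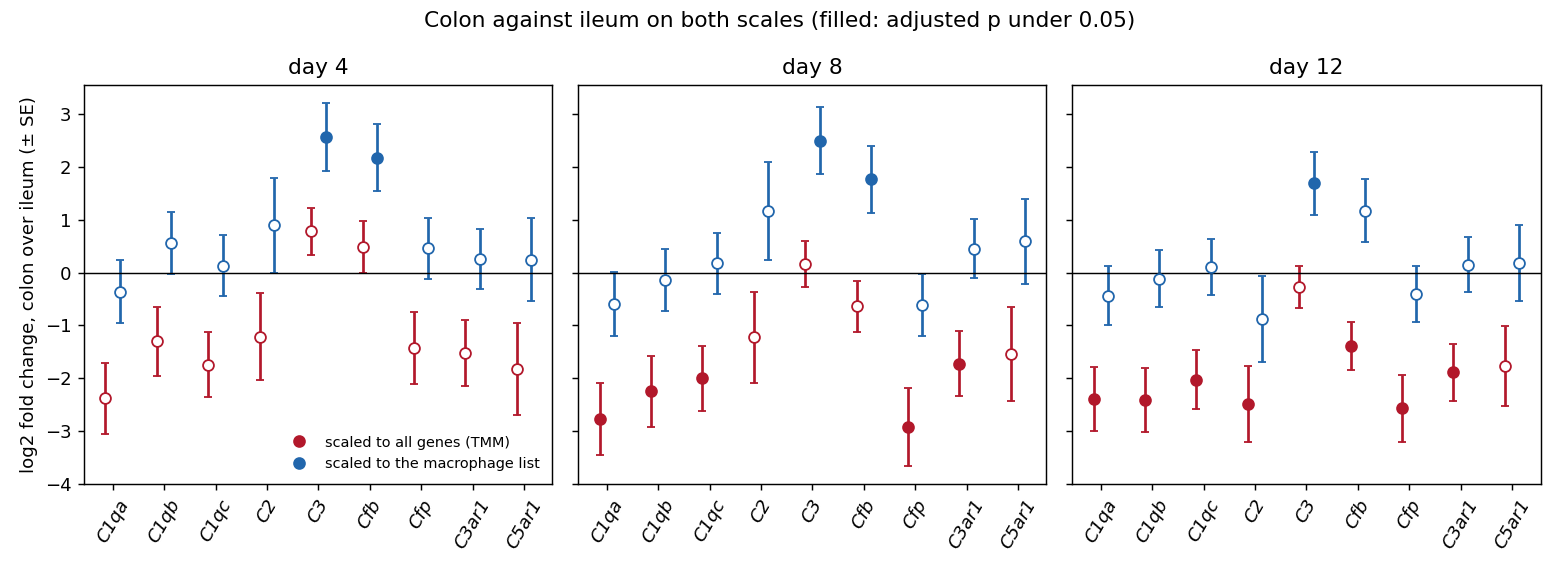
Log2 fold change of colon over ileum (± SE, edgeR) of each complement gene on days 4, 8 and 12, with libraries scaled to all genes (TMM) or to the 10 macrophage markers. Filled points passed an adjusted p of 0.05; on the TMM scale the C1q genes, C3ar1 and Cfp lie below 0 on days 8 and 12, and on the macrophage scale C1qc and C3ar1 lie above 0 on those days, C1qa, C1qb and Cfp below 0 on days 8 and 12, and C3 and Cfb above it.

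**Figure D4:**
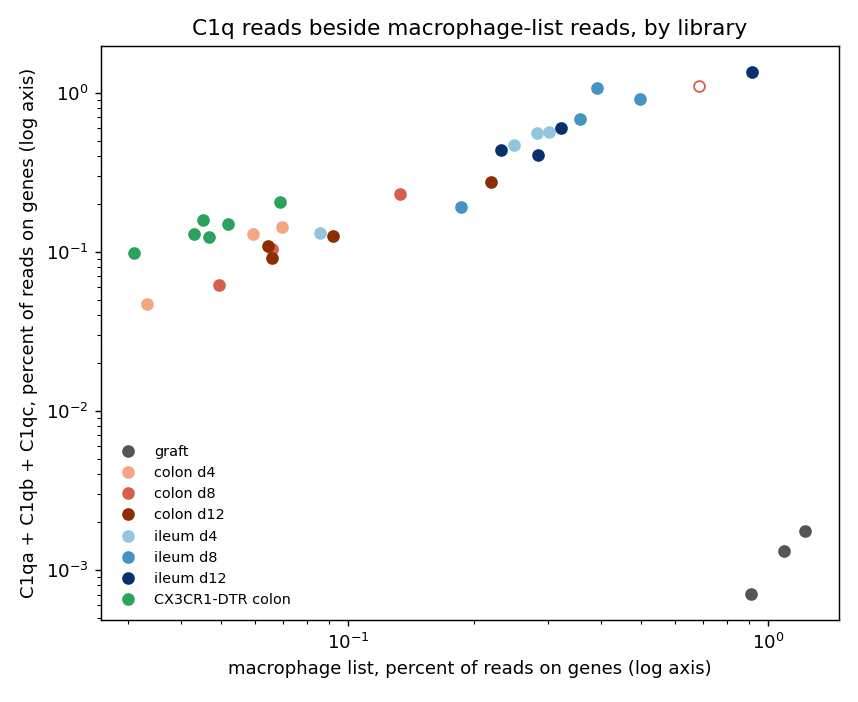
Share of the reads on genes that fell on C1qa, C1qb and C1qc against the share on the 10 macrophage markers, by library (both axes log, percent). The colon and ileum libraries lie along one band, the open point is the colon day 8 library that was not tested, the CX3CR1-DTR colon libraries lie at or above its upper edge, and the 3 graft libraries lie far below it.

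A further comparison set the same 3 graft libraries beside colon macrophages of another recipient model, which were deposited in a separate table. Levels here are reads per 10000000 reads on genes, because the second table gives no total of mapped reads, and CD11c-DTR colon on day 12 was the nearest group in time. Recipient model, donor graft, day, table and sequencing run differ together and cannot be told apart. From the graft to the CX3CR1-DTR colon, 7 of the 8 genes tested were called, 5 higher and 2 lower, beside 75.5% of 11718 genes, 39.5% higher and 36% lower. C5ar1 did not pass the filter there, and as the second table counts it on another transcript, its levels are not compared. C1qa had a lowest, median and highest value of 4323, 5422 and 8082 over the 6 libraries, against 57.2, 52.2 and 21.1 in the graft and 4257, 13130.1, 3766 and 5530.3 in the CD11c-DTR colon. The 6 libraries were above the graft and within the range of the CD11c-DTR colon. The rise of C1qa was 7.31 ± 0.57 (SE) on the log2 scale, that of C1qb 6.61 ± 0.57 (SE), that of C1qc 7.60 ± 0.53 (SE) and that of Cfb 4.71 ± 0.23 (SE) (adjusted p at most 1.15e-07, edgeR). C2, at 0 in the graft, was at least 9.51-fold higher (adjusted p = 1.79e-04, edgeR). As it could pass the low-count filter only through colon libraries, this call is no support for a rise. C3 fell by 2.61 ± 0.48 (SE) and Cfp by 2.77 ± 0.37 on the log2 scale (adjusted p = 1.83e-04 and 8.34e-06, edgeR).

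Set directly against the CD11c-DTR colon on day 12, 3 of 8 genes differed, beside 60.7% of all genes, a share below the background. Cfb had a lowest, median and highest value of 2071, 2988 and 3261 in the CX3CR1-DTR colon and stood at 1123, 904, 849 and 1111 in the CD11c-DTR colon, so the groups did not overlap, with a log2 fold change of 1.51 ± 0.17 (SE) (adjusted p = 3.16e-06, edgeR). C2 had a lowest, median and highest value of 71.2, 78.5 and 188 against 14.2, 10.6, 4.34 and 76.2, which overlapped, and was higher by 1.79 ± 0.64 (SE) (adjusted p = 0.0277, edgeR), a call lost without CD11c-DTR colon replicate 1, 2 or 3 (adjusted p between 0.0683 and 0.0808, edgeR). C2 could pass the low-count filter of this fit only through the CX3CR1-DTR libraries. Its call and its place in the counts of this comparison are thus no support for a difference. C3ar1 had a lowest, median and highest value of 0, 17 and 20.4, 0 to 8 counts, against 154, 719, 219 and 269.6, and was lower, with a log2 fold change of -4.64 ± 0.55 (SE) (adjusted p = 5.75e-06, edgeR), where a difference between the tables in how reads were assigned cannot be told apart from one between the recipients. C3ar1 passed the low-count filter of this fit only through the CD11c-DTR colon libraries, the group where it was high. Its call and its place in the counts of this comparison are thus no support for a difference either. Against the graft, at 24.5, 8.24 and 7.04, C3ar1 did not pass the test (adjusted p = 0.697, edgeR). The macrophage list was detected in full in these libraries, at 3104 to 6905 reads per 10000000. The 3 C1q genes, C3 and Cfp did not pass the test, with mean levels in the CX3CR1-DTR and CD11c-DTR colon of 5725 and 6671 for C1qa, 4861 and 5311 for C1qb, 3801 and 3058 for C1qc, 1016 and 565 for C3, and 743 and 747 for Cfp. Per 100 macrophage-list reads, C1q reads were 265 to 349.8 in the CX3CR1-DTR colon, above all CD11c-DTR colon libraries of day 12, at 125 to 167. Scaled to that list, 7 of the 8 differed, 6 higher and C3ar1 lower, beside 63.3% of all genes.

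**Figure D5:**
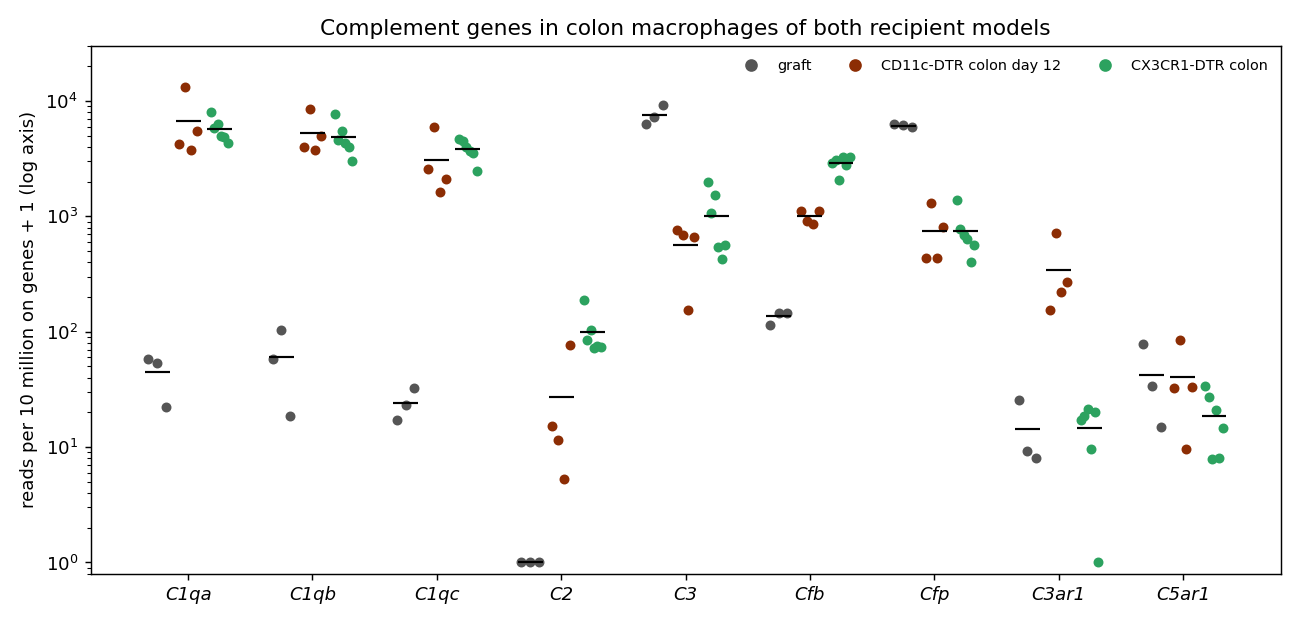
Reads per 10000000 on genes plus 1 (log axis) of the 9 complement genes in the graft, the CD11c-DTR colon on day 12 and the CX3CR1-DTR colon, by library, with the mean as a line (C5ar1 was counted on another transcript in the last group). Cfb is higher in the 6 CX3CR1-DTR libraries than in the 4 CD11c-DTR libraries, C3ar1 lies at the level of the graft, and the C1q genes overlap between the recipient models.

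Of 43 further complement genes, 23 were tested in the first fit. From the graft to the colon 14 rose and 3 fell on day 4, and 15 rose and 3 fell on day 12, and to the ileum 15 rose and 3 fell on day 4 and 18 and 3 on day 12. The shares of all genes that rose and fell were 35.1% and 25.5%, 36.6% and 26.4%, 35.6% and 21.1%, and 34.9% and 21.4% in the same order. Genes at 0 counts in the graft passed the low-count filter through the gut libraries alone, so they could only be higher there and their part of the tally is no support for a rise. Those that rose included Serping1, the C1 inhibitor, at 0 counts in the graft with day 4 colon levels at least 52.1-fold higher and day 12 ileum levels at least 154-fold higher, and C1s1, a protease of the C1 complex, also at 0 counts in the graft, with at least 29.9-fold and 68.5-fold. The membrane regulator Cd55 went from a mean of 1.58 normalized reads in the graft to 219.6 in colon on day 4 and 71.9 in ileum on day 12. The genes that fell in all 4 comparisons were the lectin Fcnb, at 0 counts in every gut library of those comparisons and at 243 normalized reads on average in the graft, and the complement receptor 3 chains Itgam and Itgb2. Fcnb passed the low-count filter through the graft libraries alone and could only be lower in the gut. Its place among the 3 that fell is thus no support for a fall. Itgam, which encodes the CD11b used for sorting, went from 3874 normalized reads on average to 211 in colon and 694 in ileum on day 12. Fibroblast markers, which summed to 17.4 to 28.1 normalized reads in the graft, reached 308 to 5416 in the ileum on day 12, and their part in the rise of Serping1 and C1s1 was not tested.

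Between the segments, 10 of these 23 genes were lower in colon and 2 higher on day 12, beside 17.3% and 15.3% of all genes. Whether these directions hold on the macrophage scale, on which 74.7% of all genes were higher in colon, was not tested. Itgax, the CD11c chain of complement receptor 4, was lower in colon, with a log2 fold change of -2.71 ± 0.75 (SE), as were Itgb2, with -2.77 ± 0.54, and C6, of the membrane attack complex, with -3.64 ± 0.72. Cd55, an inhibitor, was higher in colon by 1.60 ± 0.39. Their adjusted p-values were 0.00809, 8.25e-04, 0.00105 and 0.00381 in the same order (edgeR). The epithelial list summed to 98442 to 135022 normalized reads in colon and 18653 to 46204 in ileum on day 12. Its part in these differences, that of Cd55 among them, was not tested. C4b rose from the graft to 288 normalized reads on average in ileum on day 12, a value that is uncertain because C4a is a near-identical copy. In the second table, Cd55 and Cr1l, regulators at the cell surface, were low like C3ar1, at means in the CX3CR1-DTR colon of 7.84 and 8.22 reads per 10000000, against 398 and 689 in the CD11c-DTR colon on day 12 in the first. Table and recipient model differ together here and cannot be told apart.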

How the data were processed

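Sorted cell populations were profiled by bulk RNA-seq (a form of MARS-seq) in 32 libraries. The authors aligned reads to mm9 with HISAT 0.1.6, kept unique alignments and counted exon reads per gene by strand with HOMER, and the deposited values are these raw counts, in 2 tables. Whether molecular barcodes were collapsed is not given in the sources used here. Of the columns, 52 carried no label of this series and were not used. A normalized read is a count scaled to 10000000 reads by the mapped total in the first table's header, and the second table has none, so its levels are per 10000000 reads on genes.

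Genes that reached 50 normalized reads in 3 or more libraries were tested with edgeR 4.0.16 (TMM, quasi-likelihood, Benjamini-Hochberg) in R 4.3.3, with 25 libraries of 7 groups in the first fit (11842 genes) and 13 of 3 groups in the second (11718 genes). The first used 3 of the 4 colon day 8 libraries, the number that the study lists. The study does not name the other, and the library left out here was the one whose title is worded unlike the rest. Alternatives were library-total scaling, DESeq2 1.42.0, no filter, each library left out, all 4 colon day 8 libraries, only the groups compared, the experiment as a replicate block, an equal-variance test on log2(normalized reads + 50) and the second-experiment ileum day 4 libraries alone, as well as scaling to 10 macrophage markers, chosen after their levels were seen. Dates in the labels assign libraries to experiments. The year in the title of ileum day 8 replicate 2 was read as that of the others of its day, a slip assumed here, and the replicate block and the day 8 values within experiment 3 rest on this reading. Deviations from the group means correlated with a median r of 0.0204 over 96 pairs of libraries from 1 experiment and -0.0089 over 171 other pairs. Among 51 pairs of replicates none agreed within sampling noise (smallest chi-square per degree of freedom 4.73). The labels do not say whether replicates came from separate animals, so p-values measure only the spread between these libraries. Limits of 3 counts cover counting error only. The test was tried on simulated counts first.

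The members and the gene lists were chosen with earlier results of these data known. Fold changes are given for members past an adjusted p of 0.05, the 3 genes with the highest Pearson r to each member are named (1 of them is not reported here), and further complement genes are named if past that threshold with a group mean of at least 200. Motifs were searched in RefSeq windows of GRCm38.p6, a build other than that of the tables, with python 3.11.15. No positions were converted between builds.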

Additional observations from a re-analysis of the deposited data

Results flagged for a closer look

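Among 54 tests of a complement gene in a group of 4 to 10 libraries, 5 found a library far from the rest by Dixon's criterion, where chance alone marks about 5 percent. C1qa in colon day 8 replicate 1 was at 32738 normalized reads, where the nearest library was at 6213 and the lowest at 1677. C3ar1 in the same library was at 1019.9, beside 216 in the nearest and 54.8 in the lowest. C1qa in ileum day 12 replicate 1 was at 34542 normalized reads, beside 13729.6 in the nearest and 12651 in the lowest. C3ar1 in colon day 12 replicate 2 was at 423, beside 152 and 105. C2 in CX3CR1-DTR colon replicate 1 was at 188 reads per 10000000 reads on genes, beside 102 and 71.2.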

How the results depend on the processing

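Over 52 fold changes of single complement genes, 784 values under other settings were computed, of which 734 kept their direction and side of the threshold, 44 kept the direction but lost the threshold and 6 reversed. The counts of genes called from the graft (8 and 8 in colon, 7 and 7 in ileum, 7 in CX3CR1-DTR colon) stayed within 1.5 times under every alternative run. Leaving out 1 library gave 8 to 8, 8 to 8, 7 to 8, 7 to 8 and 7 to 7 in the same order, and 0 to 0 for both changes over time and for the interaction. For colon against ileum on day 4, with 0 genes called, DESeq2 called 2, the replicate block by experiment 1, the ileum libraries of experiment 2 alone 2 and scaling to the macrophage list 2, and leaving out 1 library gave 0 to 2. On day 8, with 5 called, all 4 colon libraries gave 0, the equal-variance test 0, the macrophage list 2 and leaving out 1 library 2 to 5. On day 12, with 7 called, the equal-variance test gave 1, the macrophage list 1 and leaving out 1 library 4 to 7. For CX3CR1-DTR against CD11c-DTR colon, with 3 called, the macrophage list gave 7 and leaving out 1 library 2 to 3. Reversed values on the log2 scale were, for C3ar1 on day 8, 0.064 with all 4 colon libraries, and with the macrophage list 0.46 for C3ar1 and 0.17 for C1qc on day 8 and 0.15 for C3ar1, 0.10 for C1qc and 1.17 for Cfb on day 12. The macrophage list was chosen after seeing the data, and the cause of these shifts was not tested. The replicate block changed no other count. For the comparisons with CX3CR1-DTR colon no such block was fitted, because the labels of those libraries carry no experiment number. The main fit had no term for the experiment, so colon and ileum were matched by date only in the block and in the ratios within experiments. Low counts limit C2 and C5ar1: the limit of 3 counts lay between 3.51 and 27.6 normalized reads, and 3 or 4 libraries a group set the precision.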
